A study of Mus musculus with 7 samples.

Results

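Long intergenic RNAs (lincRNAs) are transcripts without a known protein product that the annotation places between protein-coding genes. The members here are the lincRNA rows of the authors' deposited table that lie on a numbered chromosome and have a mean of at least 50 scaled counts over the dKO and control columns. A scaled count is a gene's reads divided by its library's size factor, which removes differences in depth. The members were thus chosen by their measured level, which took 229 of 1705 lincRNA genes on numbered chromosomes, out of 39179 rows in all. The libraries are of regulatory T cells (Treg), sorted as CD4+TCRb+CD25hi Foxp3+ cells from the lymph nodes of C57BL/6 mice aged 3 weeks. The dKO group, Id2fl/flId3fl/flFoxp3cre, has 3 libraries, and the control group, Id2fl/+Id3fl/+Foxp3cre, has 2 libraries. Both groups carry the Foxp3-driven Cre recombinase, which acts in cells that express Foxp3, so the controls have a floxed allele of each gene too and are not wild type. A pair of libraries without replicate numbers, processed separately, is labelled control and dKO in titles and source names, but its genotype tags are the other way round. The labels do not say whether libraries come from separate animals. The control libraries differed widely in Y-linked reads, given below, so they are not repeats of the same RNA. Reads of the dKO libraries were not recovered, so the dKO part of the spread behind the p-values may be technical.

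LincRNAs are usually transcribed by RNA polymerase II, capped and spliced like messenger RNA, and many stay in the nucleus at low copy number. Some act on the gene next to them, some scaffold nuclear bodies, and others serve mainly as the precursor of small RNAs cut from their introns or exons. Id2 and Id3 are inhibitors that bind E proteins, transcription factors of the helix-loop-helix family, and keep them from binding the E-box motif CANNTG.

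Id2 had 783 scaled counts in the controls and 61.1 in dKO, and it fell (adjusted p = 1.48e-08 by the authors' deposited table). Id3 had 1376 and 891 scaled counts (adjusted p = 0.209 by the authors' deposited table). Treg transcripts were abundant in both groups, with 13481 scaled counts of Foxp3 in control and 10942 in dKO, and 32376 and 32126 of Il2ra. Scaled counts summed to 38950892 in control and 39948550 in dKO. Reads per library could be recovered from the group means for the 2 control libraries at most members, but not for the dKO libraries. One control library held 285 reads of Kdm5d and 316 of Uty, which are Y-linked, and the other held 3 and 12. The dKO means of these genes were 2.56 and 17.8 scaled counts. Control values are given below in that order, the library with more Y-linked reads first. Among markers of other cell types, Mzb1, a plasma cell gene, rose from 11.2 to 905 scaled counts, and Prdm1 rose from 1179 to 2053. The other 3 plasma cell markers measured were not called, and Sdc1, which defines plasma cells, had 23.4 and 28.0. The summed level of the 5 was 11553 in control and 18763 in dKO. None of the 7 B cell markers was called, and Ms4a1 was near 0, at 1.76 and 1.47 scaled counts. Others were present: Cd79b had 894 in control and 1006 in dKO, Cd22 172 and 266, and Cd79a 71.2 and 51.1. The summed level of the 7 was 1159 in control and 1341 in dKO. The part of the plasma cell genes in the results below was not tested.

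A gene is called here where its adjusted p in the authors' deposited table is under 0.05, and log2 ratios are of the dKO mean over the control mean. Of the 229 lincRNAs, 25 were called, which is 10.9%, against 15.6% of the 11961 genes of any kind with a mean of at least 50. The higher ones numbered 16, or 6.99%, against a background of 8.07%, and the lower ones 9, or 3.93%, against 7.49%. With a log2 ratio of at least 1 in size, 7 were called higher and 6 lower, 5.68% of the members against 5.18%. The called share of the members was below that of all genes of this level, and close to it for changes of that size. Genes of this level share only the minimum of 50, and the shares were not matched for level above it. The median mean of the members was 121.6 scaled counts. Per kilobase of exon their median control level was 62.2, against 352.6 for protein-coding genes. The 89 members that the table does not mark as overlapping another gene had 14 called, or 15.7%. Among the marked ones it was 11 of 140, or 7.86%. The background of 15.6% holds marked and unmarked genes together, so it is not a like comparison for either share. The share of all members was also below the 16.1% of protein-coding genes and the 18.7% of 107 antisense RNA genes with a mean of at least 50. The median log2 ratio of the members was −0.06, with quartiles of −0.32 and 0.24, and that of all genes of this level was −0.001. Of the lincRNAs not called, 166 had a log2 ratio within 0.5 of 0. The level rule bears on these counts: 12 members were under 50 scaled counts in control only, 5 of them called, and 13 in dKO only, 2 of them called (AI838599 and C030034L19Rik). Of 1305 lincRNA genes with a p below the minimum, 13 were called, or 0.996%. Calls were rare there for genes of any kind. Of 31641 genes with a p, 2075 were called, and 1861 of these were among the 11961 with a mean of at least 50. The members nearest the minimum were Gm26532, Gm26884 and 1700086O06Rik, with means of 50.7, 50.6 and 50.1. Just outside it were Gm2800, Gm14136 and Gm17435, with means of 48.8, 48.8 and 48.6, and none of these 6 was called.

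**Figure D1:**
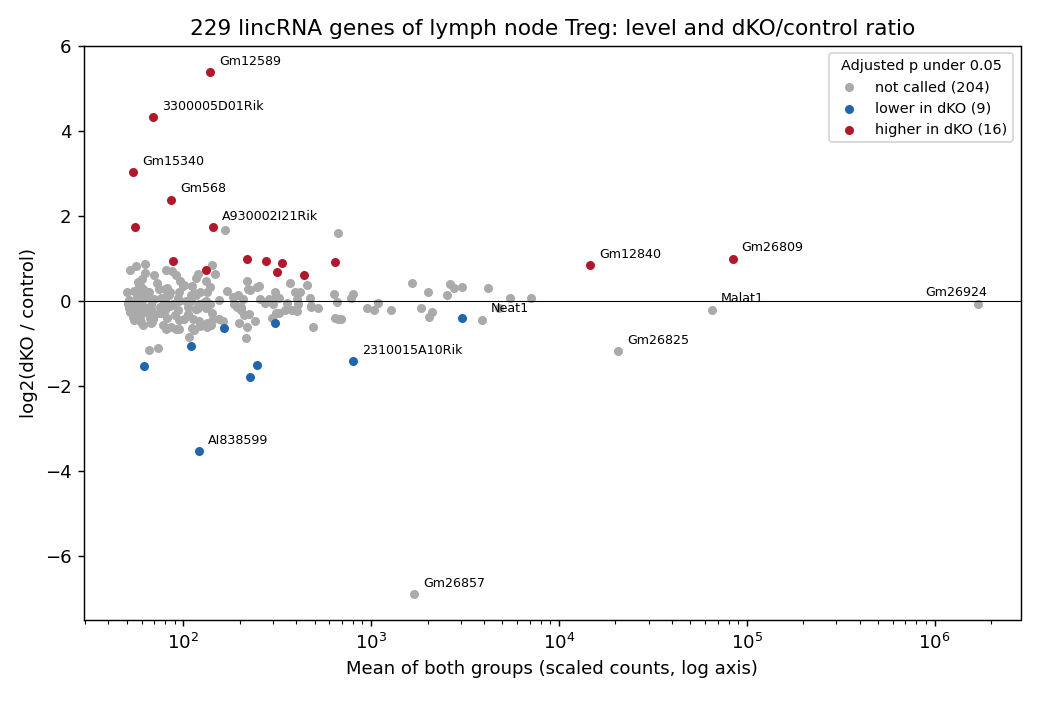
The log2 ratio of dKO over control (vertical axis) against the mean scaled count of both groups (horizontal log axis) for the 229 lincRNAs, coloured by the authors' adjusted p. Most points lie between −1 and 1, the called lincRNAs reach from −3.54 (AI838599) to 5.396 (Gm12589), and Gm26857, at −6.90, was not called.

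Promoter sequences were taken from RefSeq. Of the 229 members, 87 matched a RefSeq promoter by gene identifier, among them 11 called ones. Each sequence below runs 5′ to 3′ on the gene's own strand, from 250 bases before the RefSeq start to 50 bases after it, in build GRCm38.p6. Shown are the 4 called members with the log2 ratios largest in size among those matched, 2 higher and 2 lower, and 5830416P10Rik, the only called one with both motifs. Capitals mark E-boxes of the forms CAGCTG, which reads the same on both strands, and CAGGTG, searched on both strands so that CACCTG counts. These forms do not overlap each other. The windows are chr11:121802771-121803070 (plus strand), chr17:5798407-5798706 (plus), chr11:71033568-71033867 (minus), chr12:80132795-80133094 (minus) and chr19:53464747-53465046 (minus).
Gm12589: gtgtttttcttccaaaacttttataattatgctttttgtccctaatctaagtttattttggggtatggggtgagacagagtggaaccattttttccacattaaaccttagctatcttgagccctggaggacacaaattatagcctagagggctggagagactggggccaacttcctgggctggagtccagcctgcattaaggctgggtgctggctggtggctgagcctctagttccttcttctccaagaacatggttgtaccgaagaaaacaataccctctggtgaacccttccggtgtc
3300005D01Rik: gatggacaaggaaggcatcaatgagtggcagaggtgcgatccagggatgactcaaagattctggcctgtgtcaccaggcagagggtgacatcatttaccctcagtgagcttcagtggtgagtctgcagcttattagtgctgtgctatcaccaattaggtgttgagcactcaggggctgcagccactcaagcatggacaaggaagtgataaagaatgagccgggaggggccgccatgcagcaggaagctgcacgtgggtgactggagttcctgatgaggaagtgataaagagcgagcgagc
6330403K07Rik: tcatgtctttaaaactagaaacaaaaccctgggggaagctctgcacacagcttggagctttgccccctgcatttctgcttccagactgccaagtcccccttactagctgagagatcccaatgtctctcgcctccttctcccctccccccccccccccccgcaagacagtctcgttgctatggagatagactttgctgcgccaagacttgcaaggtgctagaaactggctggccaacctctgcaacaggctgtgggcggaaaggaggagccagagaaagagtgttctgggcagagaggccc
2310015A10Rik: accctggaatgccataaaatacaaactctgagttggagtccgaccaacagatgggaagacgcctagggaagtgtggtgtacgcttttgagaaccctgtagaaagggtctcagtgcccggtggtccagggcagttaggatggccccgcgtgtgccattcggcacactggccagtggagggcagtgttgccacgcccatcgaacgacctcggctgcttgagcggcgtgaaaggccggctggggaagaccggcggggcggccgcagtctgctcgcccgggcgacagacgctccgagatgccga
5830416P10Rik: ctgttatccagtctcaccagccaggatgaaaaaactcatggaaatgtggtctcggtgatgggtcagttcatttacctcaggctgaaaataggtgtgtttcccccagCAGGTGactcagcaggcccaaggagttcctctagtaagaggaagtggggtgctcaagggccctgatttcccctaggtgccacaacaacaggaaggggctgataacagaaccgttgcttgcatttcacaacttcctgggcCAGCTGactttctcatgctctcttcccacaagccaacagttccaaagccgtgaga
The first 4 windows hold neither form, and the window of 5830416P10Rik holds 1 of each. At least 1 E-box of these forms was found in 5 of the 11 called members' promoters (45.5%), in 24 of 76 promoters of members not called (31.6%) and in 10823 of 32851 RefSeq promoters (32.9%). The forms CAGCTG and CAGGTG stand in 16.3% and 20.2% of all these promoters. These matches describe letters, not binding sites, and the other called members with a match were Gm12505, Gm26885, Gm16907 and Gm5914.

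The steepest called fall was that of AI838599. AI838599, a spliced lincRNA of 5 annotated transcripts at chr4:3242055-3258092, had 201 and 247 scaled counts in the controls and a dKO mean of 19.3. It fell by 3.54 on the log2 scale (adjusted p = 3.92e-32 by the authors' deposited table), and both controls lay far above the dKO mean. Per kilobase of exon its level went from 52.9 to 4.56 scaled counts. The nearest coding gene, Vmn1r3, a vomeronasal receptor gene 56697 bases away, was listed at 0 in both groups. Gm11707, at chr11:106972058-106973090, had 306 and 420.2 scaled counts in the controls and 129 in dKO. It fell by 1.49 (adjusted p = 9.10e-05 by the authors' deposited table). Kpna2, which encodes an importin alpha that carries proteins into the nucleus, lies 15539 bases upstream on the same strand and rose by 0.83 (p = 1.18e-05 after adjustment, the authors' deposited table). C030034L19Rik had 93.3 and 89.7 scaled counts in the controls and 31.5 in dKO, a log2 ratio of −1.54 (adjusted p = 5.82e-05 by the authors' deposited table). It overlaps Zfp704 on the opposite strand, which had 36.9 and 28.5 scaled counts and was not called.

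2310015A10Rik, at chr12:80120548-80132844, had a mean of 1160.2 scaled counts in control against 435 in dKO, a log2 ratio of −1.41. The authors' deposited table gives it an adjusted p of 6e-05, and its control reads were too many to be recovered per library. Its coding neighbour Zfp36l1, an RNA-binding protein that speeds the decay of AU-rich messenger RNA, lies 7535 bases downstream in the same orientation. Zfp36l1 fell from 22699 to 15937 scaled counts, a log2 ratio of −0.51 (adjusted p = 0.0014 by the authors' deposited table). Gm26669, a lincRNA that overlaps Zfp36l1 on the other strand, had 100.2 and 64.8 scaled counts, a log2 ratio of −0.63 (adjusted p = 0.486 by the authors' deposited table). The 3 transcripts of this locus thus had lower dKO means, of which 2 were called.

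Gm15675 had 131 and 165 scaled counts in the controls and 71.6 in dKO. It fell by 1.05 (adjusted p = 8.00e-04 by the authors' deposited table). It lies 1836 bases downstream of Cd55, which encodes decay-accelerating factor, an inhibitor of complement on the cell surface. Cd55 went from 1001 to 554 scaled counts, a log2 ratio of −0.86 (adjusted p = 7.40e-07 by the authors' deposited table). AI504432, at chr3:107039504-107054347, had 3489 scaled counts in control against 2637 in dKO, a log2 ratio of −0.40 (p = 0.0326 after adjustment, the authors' deposited table). It lies 1375 bases downstream of Kcna3, the main voltage-gated potassium channel gene of T cells, which had 1748 and 1202 scaled counts, a log2 ratio of −0.54 (adjusted p = 0.0023 by the authors' deposited table). So at both loci the lincRNA and the coding gene upstream of it on the same strand were called lower. Both lincRNAs are marked as overlapping another gene, so some of their reads may be shared.

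Another lincRNA of the same stretch of chromosome 3 went the other way. A930002I21Rik, at chr3:107090880-107098401, starts 36533 bases beyond the end of AI504432 on the same strand. It had 83.2 and 49.4 scaled counts in the controls and 221 in dKO, a log2 ratio of 1.74 (adjusted p = 2.49e-11 by the authors' deposited table). The dKO mean was above both controls, which themselves differed by less than that step. The coding gene that follows it after 3166 bases, Kcna2, another voltage-gated potassium channel, was low at 52.7 scaled counts in control against 21.6 in dKO. Kcna2 fell, with a log2 ratio of −1.29 (adjusted p = 0.0189 by the authors' deposited table).

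The other 3 lower lincRNAs are listed as protein-coding in the later GENCODE M21 annotation, although the deposited table types them as lincRNA. RefSeq lists AI854703, and Gm4425 described below, as transcribed pseudogenes. Of the 229 members, GENCODE M21 types 155 as lincRNA, 33 as antisense and 5 as protein-coding, and 12 were not found in it. 6330403K07Rik, at chr11:71031941-71033513, had 423 and 277 scaled counts in the controls and 102 in dKO, a log2 ratio of −1.78 (p = 4.00e-04 after adjustment, the authors' deposited table). The controls differed by 0.61 on the log2 scale, less than the change to either of them. 1500011K16Rik, which RefSeq names Mtln, encodes mitoregulin, a small protein of mitochondria. It had 362 and 365 scaled counts in the controls and 253 in dKO, a log2 ratio of −0.52 (adjusted p = 0.048 by the authors' deposited table). AI854703 had 201 and 199.6 scaled counts in the controls and 129 in dKO, a log2 ratio of −0.63 (adjusted p = 0.0446 by the authors' deposited table). The coding genes nearest to 6330403K07Rik and AI854703, Mis12 (kinetochore) and Zfp775, lay within 10 kb, and neither was called.

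The largest rises were of lincRNAs that were almost silent in control. Gm12589, at chr11:121803107-121810319, had 13 and 3 reads in the control libraries, which are 10.1 and 2.75 scaled counts, and a dKO mean of 271. Its log2 ratio was 5.396 (p = 1.48e-48 after adjustment, the authors' deposited table). The nearest coding gene, Ptchd3, 19928 bases away, had 0.777 and 2.92 scaled counts and was not called. 3300005D01Rik, at chr17:5798657-5803240, had 5 and 10 control reads, 3.89 and 9.15 scaled counts, and 131 in dKO. It rose by 4.33 (adjusted p = 3.83e-12 by the authors' deposited table). Its nearest coding gene, Snx9, a sorting nexin of endocytosis that starts 38088 bases further on in the same direction, rose as well, from 629 to 2867 scaled counts. The log2 ratio of Snx9 was 2.19 (adjusted p = 8.24e-13 by the authors' deposited table).

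Gm15340 had 21 and 8 control reads, 16.3 and 7.32 scaled counts, and 96.8 in dKO, a log2 ratio of 3.03 (p = 1.01e-13 after adjustment, the authors' deposited table). Gm568, at chr4:47008316-47010781, had 28.8 and 26.5 scaled counts in the controls and 145 in dKO, a log2 ratio of 2.39 (adjusted p = 3.93e-14 by the authors' deposited table). Gm4425 had 25.7 and 25.6 scaled counts in the controls and 85.5 in dKO, a log2 ratio of 1.74 (adjusted p = 1.12e-05 by the authors' deposited table). For these 3 the nearest coding genes were Psmg1 (a proteasome assembly chaperone), Anks6 and Gm17391, none of them called. These 5 lincRNAs, from Gm12589 to Gm4425, are the called ones that were under 50 scaled counts in control, so they passed the level minimum through the dKO group alone. Gm12589, 3300005D01Rik and Gm15340 are also among the 6 members whose 2 control libraries differed by more than 1 on the log2 scale, at few reads each.

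**Figure D2:**
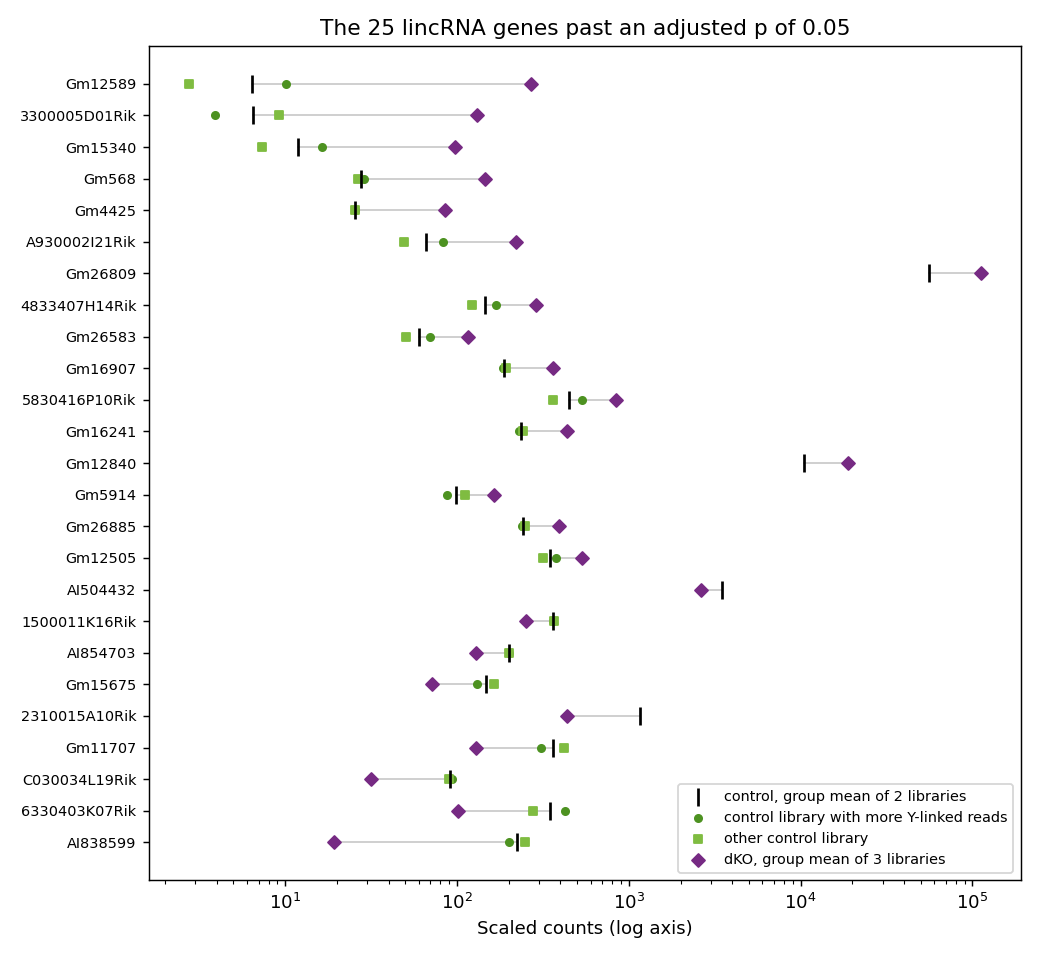
Scaled counts (log axis) of the 25 called lincRNAs, ordered by log2 ratio: the control mean (bar), the 2 control libraries where their reads were recovered (circle and square) and the dKO mean (diamond). In each of the 21 lincRNAs with recovered reads the diamond lies outside both control libraries; no bar shows an error, since the dKO values per library were not recovered.

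The most abundant called lincRNA was Gm26809, at chr6:18844220-18847360, with 56020.3 scaled counts in control against 112044 in dKO. It rose by 1 on the log2 scale (p = 3.94e-12 after adjustment, the authors' deposited table). Per kilobase this was 18792 against 37586 scaled counts, where the median member had 62.2 in control. Gm12840, at chr4:117700188-117700923, rose from 10446 to 18785 scaled counts, by 0.85 (adjusted p = 1.65e-08 by the authors' deposited table). The longest transcripts of both share a stretch of 97.1% identity that makes up 17.2% of Gm26809, and the whole of Gm12840 also aligns at 97.5% to Gm20186. Reads from such copies can be split between them, so these counts are uncertain gene by gene. The sum of Gm26809 and Gm12840 was 66467 in control and 130829 in dKO, a log2 ratio of 0.98. The coding gene 1219 bases downstream of Gm26809, listed as Naa38 and named Lsm8 in RefSeq, encodes a protein of the U6 small nuclear ribonucleoprotein and had 1444 and 1610 scaled counts, and Dmap1, the coding gene nearest to Gm12840, had 1007 and 917. Neither was called.

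At chromosome 19 a pair of overlapping lincRNAs rose together. 5830416P10Rik, named Mirt1 in RefSeq, had 532 and 362 scaled counts in the controls and 846 in dKO, a log2 ratio of 0.92 (adjusted p = 0.017 by the authors' deposited table). 4833407H14Rik lies within its span on the opposite strand and had 169 and 122 scaled counts in the controls and 290.1 in dKO, a log2 ratio of 0.998 (p = 0.0144 after adjustment, the authors' deposited table). In both the control with more Y-linked reads was the higher one, and the dKO mean was above it. The use of strand in the authors' counting is not stated in the labels, so reads of this pair may not be independent. The coding gene nearest to 5830416P10Rik is Smndc1, a splicing gene 50639 bases away, which was not called (log2 ratio 0.09). The coding gene nearest to 4833407H14Rik is Dusp5, a phosphatase that inactivates ERK, 66386 bases away. Dusp5 rose by 0.86 (adjusted p = 0.048 by the authors' deposited table).

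Among the called lincRNAs, 4 overlap a coding gene on the opposite strand, so the same limit on strand holds for them. Gm26885 overlaps Pim1, a serine/threonine kinase gene induced by cytokines. Gm26885 had 238 and 248 scaled counts in the controls and 391 in dKO, a log2 ratio of 0.69 (adjusted p = 0.0046 by the authors' deposited table). Pim1 rose from 9688 to 18198, by 0.91 (p = 8.38e-10 after adjustment, the authors' deposited table). Gm16907 had 184 and 193 scaled counts in the controls and 360.4 in dKO, a log2 ratio of 0.93 (adjusted p = 2.59e-05 by the authors' deposited table). It overlaps 2010111I01Rik, which rose by 0.86 (adjusted p = 2.04e-07 by the authors' deposited table). Gm5914 overlaps Ctcf, which encodes the main insulator protein of chromatin, and had 87.8 and 111 scaled counts in the controls and 165 in dKO. The log2 ratio of Gm5914 was 0.73 (p = 0.0218 after adjustment, the authors' deposited table), while Ctcf had 7471 and 9105 scaled counts and was not called. The fourth is C030034L19Rik, described above. Gm15675, AI504432, A930002I21Rik, Gm16241 and Gm15340 are also marked as overlapping another gene, so their reads may be shared too.

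The 3 remaining higher lincRNAs had controls that lay close to each other or well below dKO. Gm16241 had 229 and 242 scaled counts in the controls and 438 in dKO, a log2 ratio of 0.90 (adjusted p = 2.11e-05 by the authors' deposited table). Gm12505 had 378 and 317 in the controls and 531 in dKO, a log2 ratio of 0.61 (adjusted p = 0.0063 by the authors' deposited table). Rad23b, a gene of nucleotide excision repair whose 3′ end faces that of Gm12505 over 18206 bases, rose by 0.59 (p = 4.00e-04 after adjustment, the authors' deposited table). Gm26583 had 70.0 and 50.4 in the controls and 116 in dKO, a log2 ratio of 0.95 (adjusted p = 0.0107 by the authors' deposited table). The neighbours of Gm16241 and Gm26583, Slmap and Nudt14, were not called.

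The reads recovered for the controls give the only measure of spread. They could be had for 201 members, 21 of them called. In all 21 the dKO mean lay outside both controls, and its distance from the control mean was larger than the gap between the controls. For members in general this was no mark of a call: the dKO mean lay outside both controls in 155 of 201 members, or 77.1%, against 81.0% of 4462 genes of this level. The median gap between the control libraries was 0.24 on the log2 scale for members, against a median size of change of 0.29. The gap is between single libraries and the change is between group means, which vary less, so these are not like measures. Because the 21 dKO means lay outside both controls, none of the 21 changes direction when either control library is left out.

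Besides Gm26809 and Gm12840, the 10 most abundant lincRNAs were not called, nor was any member with a curated symbol in the table. Gm26924 had the highest counts, 1736965 in control and 1665541 in dKO, and made up 4.46% of all control counts. It overlaps Rn18s-rs5, which RefSeq lists as a pseudogene of 18S ribosomal RNA, so its counts may not be those of a lincRNA. The other 228 members together made up 0.660% of the control total and 0.734% of the dKO total. Malat1, a nuclear RNA that gathers in splicing speckles, had 69638 and 60589 scaled counts, a log2 ratio of −0.20 (adjusted p = 0.621 by the authors' deposited table). Neat1, the scaffold of paraspeckles and neighbour of Malat1, had 4471 and 3308 scaled counts, a log2 ratio of −0.43 (p = 0.489 after adjustment, the authors' deposited table). Pvt1, which lies near Myc, had 418 and 369 in the controls and 409.8 in dKO, so the dKO mean fell between the controls. Fam169b, Gm26905, 1700020I14Rik and AI662270, also among the 10 highest, had log2 ratios from −0.15 to 0.30, and none was called. Of the named non-coding genes, Ccdc41os1, Gdap10, Fam120aos and Gpr137b-ps were not called either. Beside 2 of these uncalled members the nearest coding gene was called. Oip5, a centromere protein gene, rose by 0.89 next to 1700020I14Rik (adjusted p = 2.26e-05 by the authors' deposited table), and Fam69b fell by 0.87 next to Snhg7 (adjusted p = 0.002 by the authors' deposited table). The coding genes within 10 kb of the others, among them Slc3a2 beside Snhg1, Nampt across Gdap10 and Frmd8 beside Neat1, were not called.

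Some members are the source of small RNAs. Small nucleolar RNAs, which guide the modification of ribosomal RNA, as the table types them, lay within 10 members on the same strand, among them Snhg1, Snhg4, Snhg5, Snhg6, Snhg7 and Snhg12. Their log2 ratios ran from −0.53 to 0.47, and none was called. Snhg5 had 1402 scaled counts in control against 1889 in dKO (adjusted p = 0.204 by the authors' deposited table). Snhg7 had 215 and 252 in the controls and 162 in dKO (adjusted p = 0.269 by the authors' deposited table). Genes that the table types as microRNAs lay within 5 members, which had a log2 ratio between 0.20 and 0.47, and none of these was called. With 10.9% of all 229 members called, sets as small as these 10 and 5 may hold none. Mir17hg, the host of the miR-17-92 cluster, known for its part in lymphocyte survival, had 202.1 and 167 scaled counts in the controls and 255 in dKO. Its log2 ratio was 0.47 (adjusted p = 0.925 by the authors' deposited table). Gm26667, which contains Mir155, a microRNA needed for Treg fitness, had 76.2 and 57.7 in the controls and 81.8 in dKO. 6720427I07Rik, which contains Mirlet7d, had 88.6 and 73.2 in the controls and 112 in dKO. All 3 dKO means were above both controls, and none of the 3 was called. Of 201 members with recovered reads, 77.1% had a dKO mean outside both controls. The mature RNAs of these hosts, from RefSeq (GRCm38.p6), are shown because they are the known products of these transcripts, with the seed, bases 2 to 8, in capitals.
miR-17-5p: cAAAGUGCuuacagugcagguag
miR-20a-5p: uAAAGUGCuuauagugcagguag
miR-18a-5p: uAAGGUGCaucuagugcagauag
miR-19a-3p: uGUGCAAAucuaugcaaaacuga
miR-19b-3p: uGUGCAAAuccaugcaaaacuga
miR-92a-3p: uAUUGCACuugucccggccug
miR-155-5p: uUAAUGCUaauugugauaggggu
let-7d-5p: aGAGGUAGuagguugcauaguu
miR-17-5p and miR-20a-5p share the seed AAAGUGC, and miR-19a-3p and miR-19b-3p share GUGCAAA. The deposited counts are of the host transcripts, and mature microRNAs were not measured.

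Proteins that work with such RNAs were counted from lists. Of 22 paraspeckle proteins, 3 were called higher and none lower: Rbm14 (log2 ratio 0.55), Sfpq (0.52) and Tardbp (0.42), in a list whose median log2 ratio was 0.21. That is 13.6% called, near the 16.1% of protein-coding genes with a mean of at least 50. Of 18 genes of nuclear RNA turnover, which degrade many lincRNAs, Mphosph6, a cofactor of the exosome, was called higher at 0.47, which is 5.56% of the list, below the same background, and the list's median was 0.09. None of 16 genes of nonsense-mediated decay was called, against the same 16.1%, with a median of 0.05. Of 30 known long noncoding RNA genes of any biotype, 1 was called, Miat, which was lower and lies below the level minimum. That is 3.33%, against 15.6% of genes with a mean of at least 50. Some of the 30 were far below that level, such as H19 (0 and 4.44 scaled counts) and Gm16084 (4.30 and 2.96).

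A few members had large ratios without a call. Gm26857, which overlaps the kinase gene Lyn on the opposite strand, had 3359 scaled counts in control against 28.0 in dKO, yet the authors' deposited table gives an adjusted p of 0.336. Its control reads per library could not be recovered, so it is not known whether 1 control library carried them. Gm26825 had 28570 and 12592 scaled counts (adjusted p = 1 by the authors' deposited table), and 95.8% of its longest transcript aligned to Hspa8 at 99.6% identity. In Gm26870 the controls themselves held 17.9 and 183 scaled counts, either side of the dKO mean of 46.8. Gm19705 had 84.0 and 76.0 in the controls and 253 in dKO, a log2 ratio of 1.66, and in the authors' deposited table its adjusted p of 0.0544 missed the threshold.

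By position, 98 members overlapped their nearest coding gene, 85 lay within 10 kb of it and 46 lay further away. Called members were 4 of the 88 on the opposite strand of an overlapping gene, and none of 10 on its own strand. They were 15 of the 62 in tandem with the coding gene, 9 upstream and 6 downstream, 2 of 44 head to head and 4 of 25 tail to tail. Over all members the called share was 10.9%, and the counts by position were not tested. The nearest coding gene was called for 10 of the 25 called members, which is 40%, in the same direction for 8 and the opposite for 2. Those 2 were Gm11707 with Kpna2 and A930002I21Rik with Kcna2. For the members not called, the nearest coding gene was called in 16, or 7.84% of them. Of the distinct nearest coding genes with a p, 25 of 219 were called, or 11.4%, against 16.1% of coding genes with a mean of at least 50. With neighbours limited to that level, 29 of 222 were called, or 13.1%. These shares were not tested. Over members whose nearest coding gene had a mean of at least 50, the log2 ratios had the same sign in 54 of 84 overlapping pairs, 40 of 72 within 10 kb and 16 of 29 further away. Pearson's r was 0.25, 0.32 and 0.44, as a description: both genes come from the same libraries, and overlapping genes may share reads. Spearman's rho was 0.41, 0.32 and 0.18.

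**Figure D3:**
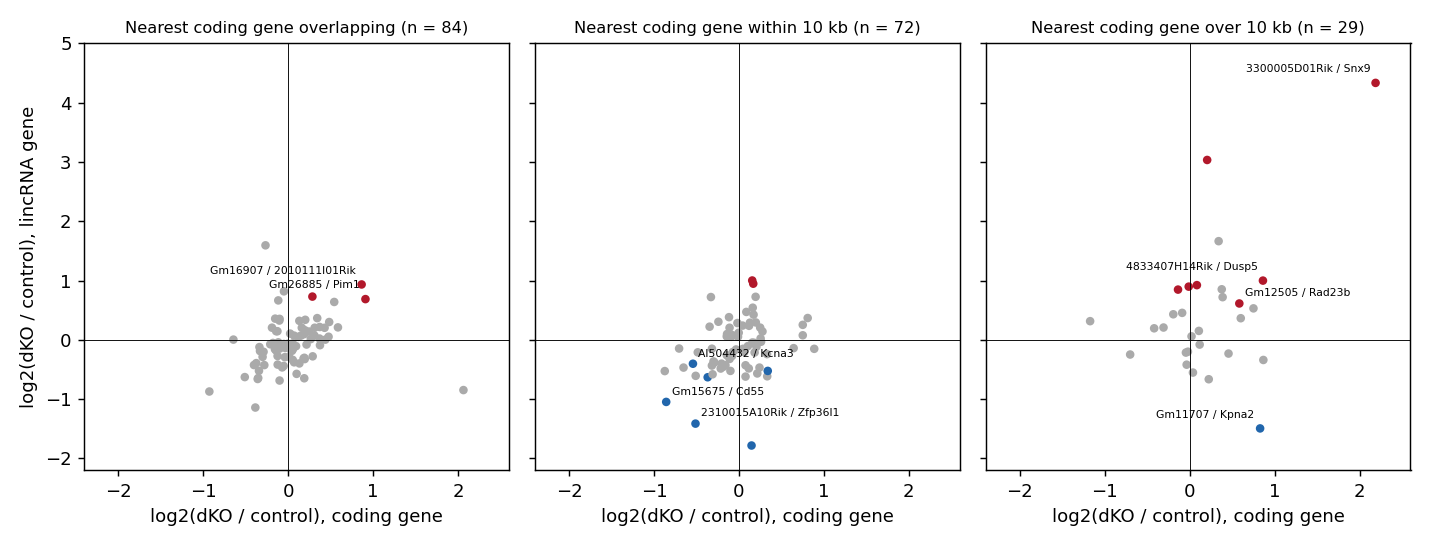
The log2 ratio of each lincRNA (vertical axis) against that of its nearest protein-coding gene (horizontal axis), for coding genes with a mean of at least 50, in panels for overlapping genes (84), genes within 10 kb (72) and genes further away (29). Red and blue mark lincRNAs called higher and lower, and names mark pairs in which both were called; Snx9 and 3300005D01Rik stand furthest to the upper right.

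The unnumbered pair gives FPKM (fragments per kilobase, scaled to depth) for 48 of the members, in libraries that the level rule did not use. Id2 had 18.6 FPKM in the library labelled control and 9.69 in the library labelled dKO, and Id3 160 and 221, so these genes do not settle the labels. With 1 library a side there is no test. Among the 42 members with at least 1 FPKM in either library, 6 were called in the replicated comparison, and 5 of these had a ratio in the same direction by the titles, or 1 of 6 if the genotype tags are taken. 6330403K07Rik had 10.5 FPKM in the library labelled control and 2.09 in the one labelled dKO. 2310015A10Rik had 8.13 and 3.60, AI504432 had 17.02 and 8.12, and 1500011K16Rik had 21.4 and 16.7. 5830416P10Rik, called higher, had 1.82 and 2.79 FPKM, and AI854703, called lower, had 1.39 and 1.64, the opposite direction. Over all 42, 28 had the same direction as in the replicated comparison, and Pearson's r of the log2 ratios was 0.57. With the labels turned as the genotype tags have them, 14 of 42 did, and r was −0.57. Malat1 (234 and 128 FPKM), Neat1 (47.5 and 18.9) and Snhg7 (54.8 and 10.6) were lower in the library labelled dKO by more than in the replicated comparison, and Snhg4 was higher, at 7.60 and 16.02. The median log2 ratio of the 42 was 0.06, against −0.00 over 12986 entries.

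**Figure D4:**
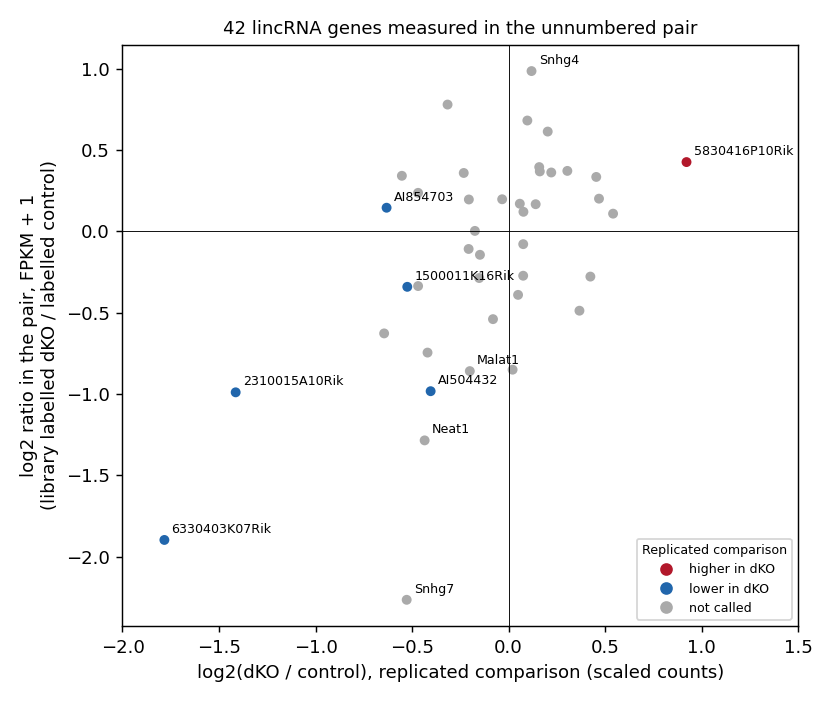
The log2 ratio in the unnumbered pair, library labelled dKO over library labelled control, FPKM plus 1 (vertical axis), against the log2 ratio of the replicated comparison (horizontal axis) for 42 lincRNAs. Of the 6 called in the replicated comparison, 5 lie in the lower left or upper right; AI854703 lies in the upper left.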

How the data were processed

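RNA was measured in 7 libraries of sorted Treg. For the replicated comparison, per the submitters' processing notes, RSEM and DESeq were used on build mm10 (GRCm38), without versions. The deposited signal columns are called raw counts by the file header, but they hold fractional group means, whose steps are those of reads divided by library size factors (1.29 and 1.09 in control, 0.929, 0.910 and 0.860 in dKO). Per the file headers, the table also gives log2 ratios, a score per row, raw p-values and adjusted p-values. The authors' test was used as deposited. A count test on libraries was planned but could not be run on group means, and no SD is given. The deposited FPKM of the pair, with its p-values, was made by Cuffdiff (given as 0.0.6) after TopHat 1.4.0 on mm9, per the submitters' processing notes, and FPKM was summed over a gene's entries.

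Control reads were recovered as the only whole-number pair giving the mean within 6e-05 scaled counts, for means under 800. On means simulated with the same fitted steps, 99.5% had 1 solution, and all of these were right. This does not test the steps themselves. Recomputed log2 ratios differed from the deposited ones by at most 8.22e-05 where the mean was at least 10. Nearest coding genes were found by coordinates. Copies were searched with BLAST 2.17.0 among GENCODE M21 transcripts, over at least 200 bases at 97% identity, for 217 members. In Python 3.11.15, promoters and microRNAs were taken from RefSeq tables of GRCm38.p6, and 116 members matched a RefSeq gene. The rule for named genes takes all called members, the 10 highest, all with curated symbols and their coding neighbours within 10 kb or called. The members and lists were chosen with earlier results of these data known. Other genes named, among them Mzb1, Gm26857, Gm26825, Gm26870, Gm19705, Gm26669 and the host genes, were picked with their values known. The cell type lists not described in the report had no called gene, except Ctla4 (higher, Treg), Xcr1 (lower, dendritic) and Col1a2 (lower, stromal). A few items that the rule or lists take are not reported here.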

Additional observations from a re-analysis of the deposited data

How the results depend on the processing

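No paired analysis was possible because the deposited columns are group means with no library numbers, and for the same reason DESeq2, the replicate block and leaving out a dKO library were not run. The count of 25 called lincRNAs ran from 18 (at least 50 scaled counts in each group, or an adjusted p under 0.01) to 34 (an adjusted p under 0.1, or adjustment over genes with a mean of at least 10). It fell to 14 (8 higher, 6 lower) in the 89 members that the table does not mark as overlapping another gene, where fewer genes were counted; that is 15.7% of them, near the 15.6% of all genes of this level. The settings that gave 18 and 34 changed the number of members, the threshold or the adjustment. The called share of all genes was not worked out under those settings. Whether the members' share stays below that of all genes there was therefore not tested. Of the called members with a called neighbour, 8 of 10 went the same way, and 5 of 6 did with neighbours within 10 kb only. Scaling both groups to the same total shifted log2 ratios by 0.04, and neither this nor a pseudocount of 1 turned the direction of a called member. The 21 called members with recovered reads have dKO means outside both control libraries, so leaving out either cannot turn them. Of 150 values of 45 named members under these alternatives, none turned a called member. Leaving out a control library turned 2 that were not called, Pvt1 (0.06 to −0.03) and Snhg4 (0.12 to −0.12). Called neighbours were 25 of 219 in the main count, 20 of 179 within 10 kb and 23 of 214 by distance between start sites. With neighbours of a mean of at least 50 they were 29 of 222. The median log2 ratio in the pair was 0.06 with a pseudocount of 0.1 and 0.00 without a filter on low values. Depth limits the members near silence in control, where 1 read moves a library's scaled count by the inverse of its size factor.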

Other observations

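Below the level minimum, 13 of 1305 lincRNA genes with a p (0.996%) were called, 5 higher and 8 lower. Of the 2075 genes of any kind called, 1861 had a mean of at least 50. The lincRNAs named here were chosen after their values were seen, except Miat. Miat, known from heart and retina and a regulator of splicing factors in the nucleus, had 59.1 and 60.4 scaled counts in the controls and 13.0 in dKO, and fell by 2.20 (adjusted p = 8.68e-06 by the authors' deposited table). Gm26702 had 45.9 and 45.8 in the controls and 4.33 in dKO, and fell by 3.40 (p = 1.11e-07 after adjustment, the authors' deposited table). Gm19980 had 8.55 and 3.66 in the controls and 41.8 in dKO, a log2 ratio of 2.77 (adjusted p = 9.98e-06 by the authors' deposited table). F630040L22Rik had 26.4 and 22.0 in the controls and 62.3 in dKO, a log2 ratio of 1.36 (adjusted p = 0.0051 by the authors' deposited table). In each of these 4 the dKO mean lay outside both control libraries. All 4 were called genes, and the same held for 81.0% of 4462 genes with a mean of at least 50.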
